A study of Arabidopsis thaliana with 10 samples.

Results

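The plastid genome of Arabidopsis thaliana encodes core subunits of the photosynthetic complexes, and their transcripts were followed through 10 times of 1 cell culture course. Members were the probe sets in the block of probe set numbers that the array gives to plastid genes, with an annotated symbol that begins with psa, psb, pet, atp, ndh or rbc. This gave 44 of the 22746 probe sets of the ATH1 array left after removal of controls. They comprise 15 genes of photosystem II, 5 of photosystem I, 6 of the cytochrome b6f complex, 6 of the ATP synthase, 11 of the NAD(P)H dehydrogenase-like complex (NDH) and rbcL. All 44 were placed on the plastid genome by the RefSeq gene table, which lists 44 gene symbols with these prefixes, each with a member probe set. The ndhB probe set names both copies of ndhB, which lie in the inverted repeat and cannot be told apart.

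The culture was MM2d, a fast-dividing Arabidopsis suspension line kept in continuous darkness on a medium with sucrose, an auxin (NAA) and a cytokinin (kinetin). Early stationary cells were moved to fresh medium and held for 24 h with aphidicolin, an inhibitor of replicative DNA polymerases. The drug was then washed out over a nylon net. Cells were sampled at 0, 2, 4, 6, 8, 10, 12, 14, 16 and 19 h after the wash, with 1 array for each time and no replicate. All samples shared line, darkness, block and wash, and no unblocked or light-grown sample was analysed here.

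Photosystem II splits water and passes electrons through plastoquinone to cytochrome b6f, from which they reach photosystem I. The resulting proton gradient drives the plastid ATP synthase, while NDH returns electrons from ferredoxin to plastoquinone. Plastid genes lie mostly in operons read as polycistronic RNAs by a plastid-encoded and a nuclear-encoded RNA polymerase. The remaining subunits and the antenna proteins come from the nucleus. In non-green cells grown on sugar, plastids stay undifferentiated but keep and transcribe the same genome.

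Signals are MAS5 intensities, rescaled so that the 2% trimmed mean of each array was 100. The floor, below which values were set equal before log2 was taken, was a signal of 12.1. Of the 44 members, 43 passed the filter on mean signal (above 26.8) and were tested among 13647 probe sets. The exception was ndhH, an NDH subunit, with signals of 14.7 to 28.4. Array medians lay between 35.2 and 43.9, and the mean correlation of an array with the other 9 was lowest at 2 h (0.931) and otherwise between 0.955 and 0.969. Levels are compared between times and not between probe sets. A whole-culture RNA sample also cannot tell fewer plastids or cells from less plastid RNA in each.

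The plastid photosynthesis transcripts varied about as widely through the course as other transcripts on the array. The observed range over the 10 times had a median of 0.91 log2 units for the 43 members, against 0.90 for all tested probe sets. A range over 1 unit was seen for 15 members (34.9%), against 41.9% of all tested probe sets, and a range over 2 units for atpB and rbcL alone. Change over time was tested by limma, with a moderated F test on a spline of 4 terms and Benjamini-Hochberg adjustment over all tested probe sets. Of the 43 members, 1 was called at an adjusted p under 0.05, against 5.57% of all tested probe sets. At an unadjusted p under 0.05 there were 9 members (20.9%), against 24.8% of all. Neither share of members was above that of the array as a whole.

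**Figure D1:**
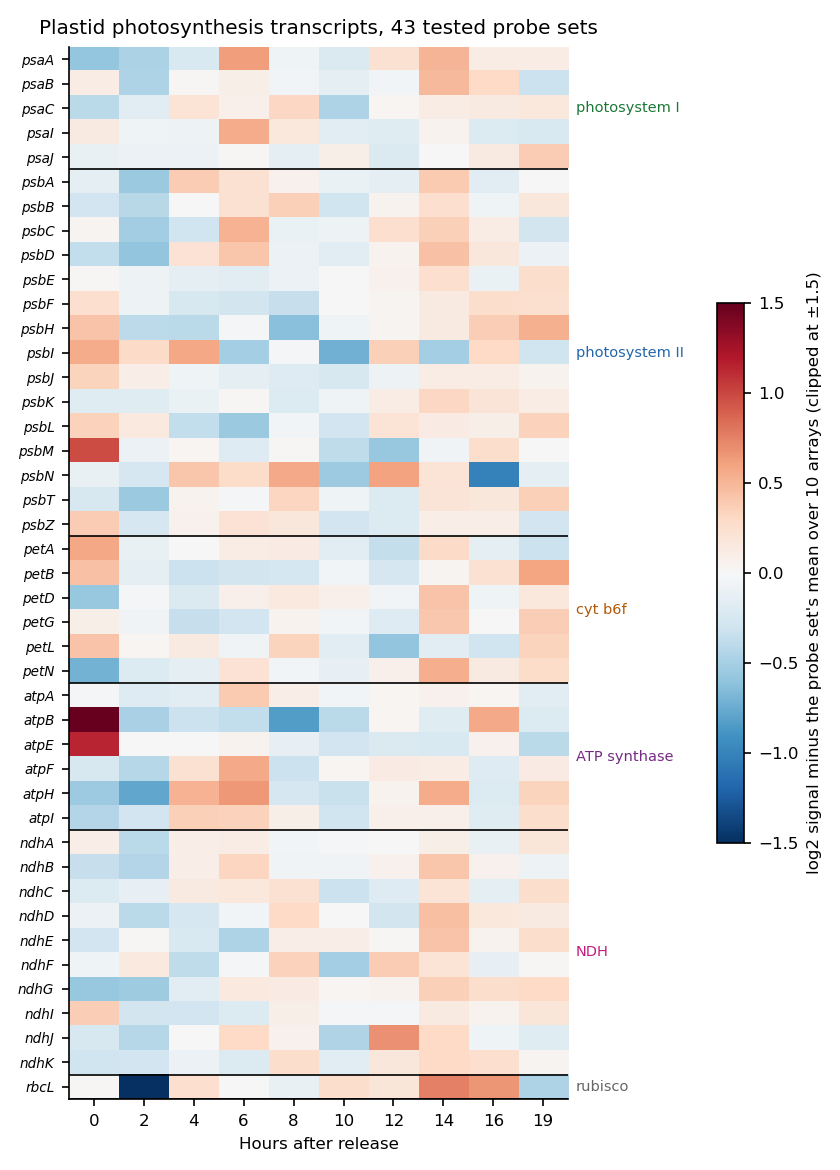
Heat map of the 43 tested members (rows, grouped by complex) at the 10 sampling times (columns, hours after release, 1 array each). Colour gives the log2 signal minus that probe set's mean over the 10 arrays, clipped at 1.5 units either way. Colours are mostly pale, with the deepest red for atpB and atpE at 0 h and the deepest blue for rbcL at 2 h.

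The member called over the time course was petB, which encodes cytochrome b6, a haem-binding core subunit of the cytochrome b6f complex. From 0 h to 19 h its signals were 837, 557, 497, 513, 517, 603, 520.1, 635, 725 and 934. It was high at both ends and lowest at 4 h, with an observed range of 0.91 log2 units. The fitted range was 0.97 (limma F test, adjusted p = 0.0251). The adjusted p came to 0.0518 to 0.113 when the 4, 6, 8, 14, 16 or 19 h sample was left out, to 0.0696 with no filter and to 0.0806 with no mean trend, which ended the call. It passed in 13 of 21 alternatives, with an adjusted p of 0.00935 to 0.113 over all of them.

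Of the other 5 genes of cytochrome b6f, petG had the course most like that of petB over the 10 arrays (Pearson r 0.71). From 0 h to 19 h petG read 113, 102, 83.3, 86.5, 109, 103, 92.7, 139, 106 and 136. It was also lowest at 4 h, and it was highest at 14 h. petN, a small subunit like petG, had signals of 81.0, 115, 119, 153, 128, 121, 139, 192, 145 and 160.2 from 0 h to 19 h. It was lowest at 0 h and highest at 14 h, with an observed range of 1.25 (adjusted p = 0.109). petL, another small subunit, read 183, 138, 149, 131, 171, 122, 89.8, 121, 111 and 171, with its lowest value at 12 h (adjusted p = 0.210). petD, subunit IV, which shares an operon with petB, had its lowest signal at 0 h (57.7) and its highest at 14 h (116). petA, cytochrome f, had its highest signal at 0 h (179.9) and its lowest at 12 h (93.7).

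In photosystem II 0 of 15 members were called over the time course by limma. At an unadjusted p under 0.05 there were 4 (26.7%), against 24.8% of all tested probe sets. psbF, the beta subunit of cytochrome b559, had the lowest adjusted p, 0.0709. Its signals from 0 h to 19 h were 362, 290.2, 259, 253, 239, 304, 314, 335, 366 and 361, again high at both ends, with the low point at 8 h. psbJ, a small subunit from the same operon, read 415, 352, 314, 299, 289, 279, 313, 354, 356 and 341 (adjusted p = 0.123). Both had narrow observed ranges, of 0.61 and 0.57. Of the other members of that operon, psbL was also lowest in the middle hours, at 71.3 at 6 h against 133 at both 0 h and 19 h, and psbE ranged from 165 to 223. psbH, a small core phosphoprotein of the psbB operon, ran from 90.0 at 8 h to 201 at 19 h.

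psbM, a small subunit at the dimer interface, stood out at 0 h. Its signals were 272, 130.2, 141, 121, 141, 106, 93.3, 134, 166 and 138 from 0 h to 19 h. The 0 h value was 1.64 times the next highest, at 16 h, and the observed range was 1.54 (adjusted p = 0.254). psbN, an assembly factor gene on the strand opposite the psbB operon, read 37.4, 33.8, 53.6, 49.0, 59.99, 27.5, 61.0, 46.5, 20.0 and 36.3. Its observed range, 1.61, was the widest of the complex, and its values alternated from time to time (adjusted p = 0.787). psbI, a small core subunit, also alternated between neighbouring times. From 0 h to 19 h it read 229, 191, 234, 110.2, 153, 95.2, 199, 109, 192 and 127.

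The genes for the large photosystem II proteins, psbA, psbB, psbC and psbD, each had their lowest signal at 2 h. That time was the lowest for 30.2% of members and for 29.5% of all tested probe sets. psbD, which encodes the D2 reaction centre protein, had signals of 86.4, 74.1, 129.6, 149.6, 105, 99.7, 116, 152, 126 and 105 from 0 h to 19 h. It had a low point at 2 h and high points at 6 h and 14 h, with an observed range of 1.03 (adjusted p = 0.341). psbC, the CP43 antenna, was also lowest at 2 h (56.2), with high points at 6 h (116) and 14 h (103). psbB, the CP47 antenna, had 87.4 at 2 h, its low point, 149 at 8 h and 139 at 14 h. psbA, the D1 protein, lay between 54.8 at 2 h and 106 at 14 h. The adjusted p was 0.700 for psbC, 0.583 for psbB and 0.794 for psbA (limma F test). psbT, a small subunit, was lowest at 2 h as well (136). The small subunits psbK, psbT and psbZ stayed within 1.42-fold, 1.89-fold and 1.60-fold over the course.

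In photosystem I 0 of 5 members were called. At an unadjusted p under 0.05 there were 0, against 24.8% of all tested probe sets (limma F test). psaA, a large reaction centre protein, read 56.1, 60.1, 71.3, 129, 79.9, 72.0, 98.0, 119, 90.9 and 90.3 from 0 h to 19 h. Its 3 early samples were the lowest and those at 6 h and 14 h the highest, with an observed range of 1.2 (adjusted p = 0.317). psaB, its partner from the same operon, read 115, 77.6, 108, 113, 103, 97.3, 103, 149, 131 and 85.6 (adjusted p = 0.548). Only the 14 h and 16 h values of psaB were above its 0 h value. psaJ, a small subunit, read 373, 377, 378, 408, 363, 427, 347, 405, 443 and 525, with the highest value at 19 h (adjusted p = 0.243). psaC, which carries iron-sulphur clusters, ranged from 50.4 to 86.0, and psaI, a small subunit, from 72.7 to 124.

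The ATP synthase genes come from a small and a large operon. atpB and atpE, the beta and epsilon subunits of the catalytic head, are read from a common operon, and their coding regions overlap in the RefSeq table. atpB had signals of 996, 156, 175, 169, 122, 165, 223, 192, 323 and 189 from 0 h to 19 h. Its 0 h value was 3.08 times the next highest, at 16 h, and the observed range was 3.03 log2 units (adjusted p = 0.109). atpE read 658, 299.7, 298, 309, 274, 246, 258, 255, 314 and 227, with the 0 h value 2.1 times the next highest and an observed range of 1.54 (adjusted p = 0.108). For both genes the other 9 arrays lay well below the 0 h array. A single array cannot be tested against the rest, and without it the observed level of atpB ran between 122 and 323.

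The 4 genes of the large ATP synthase operon did not show this 0 h value. atpH, the membrane ring subunit, had signals of 70.0, 59.5, 147, 160.4, 85.8, 81.3, 106, 150.3, 88.7 and 129. It had a low point at 2 h and high points at 4 h, 6 h and 14 h (adjusted p = 0.416). atpF, a stalk subunit, and atpI, a membrane subunit, were low at 0 h and 2 h as well, with 38.6 and 33.9 for atpF and 25.5 and 28.2 for atpI. atpF was highest at 6 h with 67.4, and atpI reached 44.1 at 4 h. atpA, the alpha subunit, stayed between 137 and 206.

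An excess at 0 h of over 1.5-fold above every other time was seen in 3 of 43 members, atpB, atpE and psbM. The share among all tested probe sets was 1.69%. Among the other 33 plastid genes it was seen in clpP, rpl23 and rps2.

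In the NDH complex 0 of 10 tested members were called over the time course. At an unadjusted p under 0.05 there was 1, against 24.8% of all tested probe sets (limma F test). ndhG, a membrane subunit, read 68.0, 69.5, 90.3, 112, 110.1, 103, 104, 129.5, 121 and 124 from 0 h to 19 h. The 3 early values were the lowest and the 3 late values the highest, with no overlap between windows (adjusted p over the time course = 0.0809). ndhC, also a membrane subunit, read 332, 353, 423, 427, 449.9, 307, 336, 442, 351 and 460.4 (adjusted p = 0.509). ndhI, an iron-sulphur subunit, read 308, 196, 195, 207, 253, 233, 235, 263, 247 and 270.1, with the highest value at 0 h (adjusted p = 0.225). ndhJ, a subunit of the stromal arm, read 61.9, 54.0, 73.5, 90.0, 76.3, 53.3, 118, 89.9, 70.1 and 64.2, with its low and high points at 10 h and 12 h. Its observed range, 1.14, was the widest of the complex (adjusted p = 0.621). ndhB, a membrane subunit, read 87.2, 81.5, 118, 138, 107, 107, 116, 148, 116 and 105, with a low point at 2 h and high points at 6 h and 14 h. The other NDH members, ndhA, ndhD, ndhE, ndhF and ndhK, each stayed within 1.86-fold.

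rbcL, the large subunit of rubisco, had signals of 36.2, 10.8, 42.5, 36.0, 33.2, 42.9, 40.5, 60.6, 56.7 and 25.9 from 0 h to 19 h. The 2 h value was under the floor, so the observed range of 2.32 is a lower bound, and the highest value was at 14 h. The course was not called (adjusted p = 0.515).

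**Figure D2:**
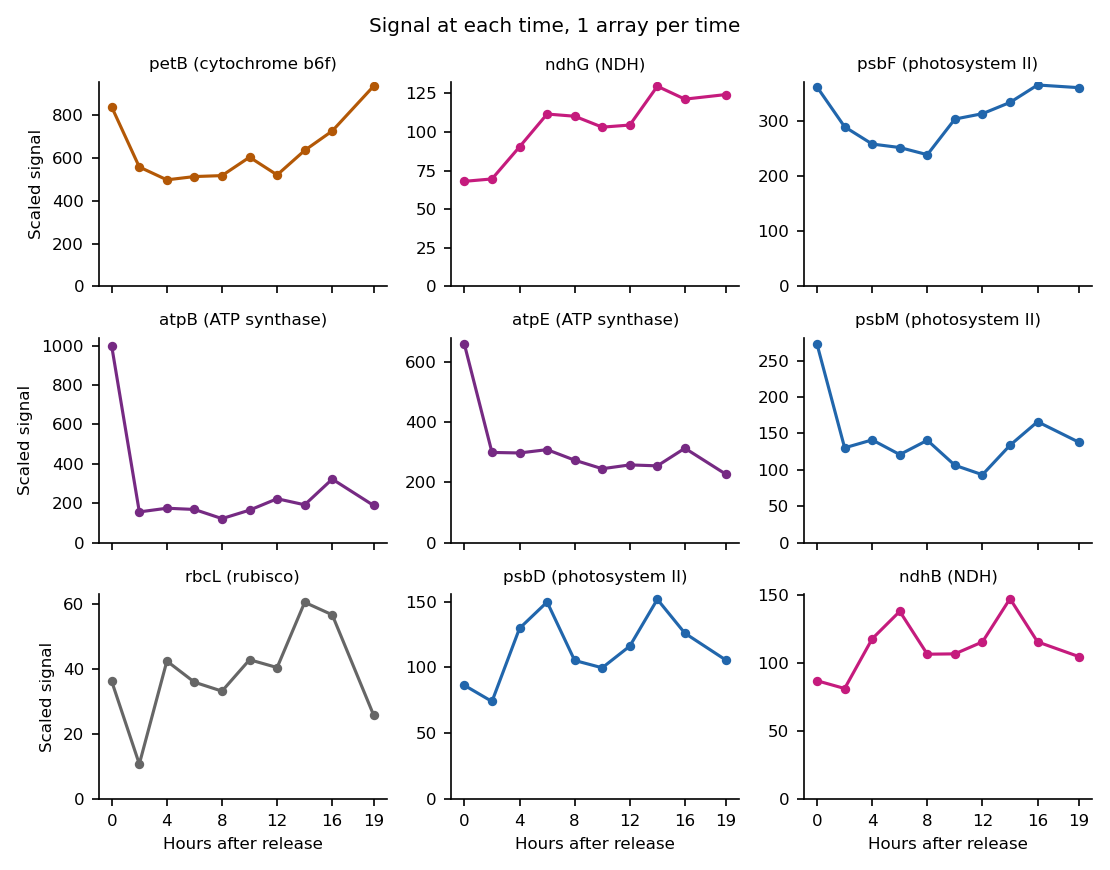
Scaled signal of 9 members (vertical axes, linear and starting at 0) against hours after release, with 1 point for each array. petB and psbF are high at both ends, ndhG is highest in the last 3 samples, atpB, atpE and psbM are highest at 0 h, rbcL is lowest at 2 h, and psbD and ndhB have high points at 6 h and 14 h.

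The complexes were then compared over the 10 times, by the median over each complex of log2 signal minus each probe set's own mean. These medians describe the members, and no test was made of them. At each time the 5 complexes with several members lay within 0.21 to 0.48 log2 units of each other, the narrowest at 16 h and the widest at 0 h. At 0 h cytochrome b6f stood at 0.26 above its mean and NDH at 0.22 below. ATP synthase was highest at 6 h (0.37), while photosystem II, cytochrome b6f and NDH were highest at 14 h, at 0.19, 0.34 and 0.30. With quantile normalization cytochrome b6f was highest at 19 h (0.32), and with median centring all 3 were highest at 19 h (0.12, 0.37 and 0.23). Photosystem I had its highest median at 16 h, 0.13. ATP synthase, NDH and both photosystems were lowest at 2 h, and cytochrome b6f at 12 h. With quantile normalization, of these 4 only NDH was lowest at 2 h, and ATP synthase and both photosystems were lowest at 10 h. With median centring NDH was lowest at 0 h (-0.21), and ATP synthase and both photosystems again at 10 h.

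Which time was highest or lowest depended on the scaling. The median over all 43 members was highest at 14 h (0.20) and lowest at 2 h (-0.25). With arrays centred on their medians it was highest at 19 h (0.19) and lowest at 10 h (-0.12), and with quantile normalization at 14 h (0.21) and 2 h (-0.19). The 2 h array had the lowest median signal and the 14 h array the highest.

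The step from 12 h to 14 h went one way in most complexes. Signals were higher at 14 h than at 12 h for 34 of 43 members, while 51.7% of all tested probe sets were higher. The members' median step was 0.22, against 0.01 for all. All 5 members of photosystem I, all 6 of cytochrome b6f, 12 of 15 of photosystem II and 8 of 10 of NDH were higher. In ATP synthase 2 of 6 were higher. At 16 h signals were lower than at 14 h for 32 of 43 members, against 50.6% of all tested probe sets, and for all 10 tested NDH members. The count of 34 was the same with quantile normalization and with median centring, and that of 32 became 33 and 31. The shares of all probe sets were 49.9% and 46.4% higher at 14 h, and 49.1% and 45.1% lower at 16 h. In the other 33 plastid genes 27 were higher at 14 h than at 12 h and 23 lower at 16 h than at 14 h. Few steps were large: 3 members were higher by over 1.5-fold from 12 h to 14 h, against 4.34% of all probe sets, and 2 were lower by over 1.5-fold from 14 h to 16 h, against 3.75%. At 14 h the signal was above that of both neighbouring times for 26 of 43 members and 22 of 33 other plastid genes, against 33.2% of all tested probe sets. Each of these times is a single array, so the steps have no test.

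At the start of the course, 32 of 43 members were lower at 2 h than at 0 h, against 57.1% of all tested probe sets. These included all 15 members of photosystem II, 5 of 10 of NDH and 2 of 5 of photosystem I. By over 1.5-fold, 9 members were lower, against 16.8% of all. In the other 33 plastid genes 24 were lower at 2 h, 10 of them by over 1.5-fold. Their median step was -0.30, against -0.21 for the members. With median centring the count of 32 became 26, with 11 of 15 in photosystem II, and with quantile normalization 30, with 13 of 15. The shares of all probe sets lower at 2 h were then 41.8% and 52.1%.

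The other 6 steps were as follows. At 4 h 30 members were higher than at 2 h, against 60.1% of all tested probe sets, and at 6 h 27 were higher than at 4 h, against 54.8%. At 8 h 24 were lower than at 6 h, against 52% of all, and at 10 h 31 were lower than at 8 h, against 49.4%. At 12 h 30 were higher than at 10 h, against 52% of all, and at 19 h 23 were higher than at 16 h, against 45.9%. With quantile normalization and with median centring 34 members were lower at 10 h than at 8 h, as many as were higher at 14 h than at 12 h, and all 10 NDH members were among them. The matching shares of all probe sets were 51.7% and 58.6%. In the steps to 6 h, 8 h and 12 h median centring turned the majority of members and of all probe sets alike.

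**Figure D3:**
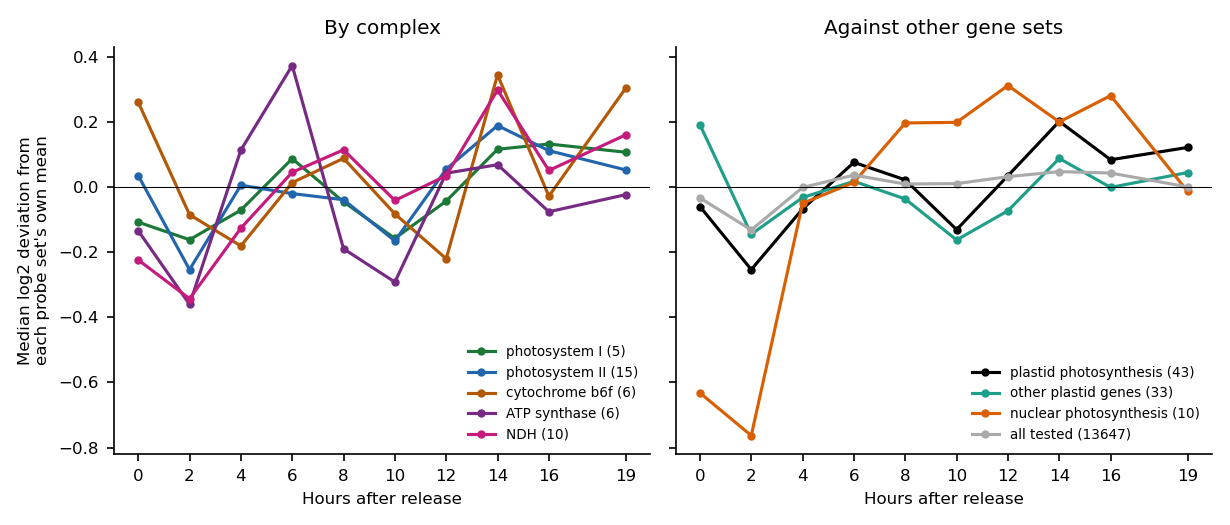
Median log2 deviation from each probe set's own mean (vertical axes) against hours after release, with the number of probe sets in brackets. On the left, the 5 complexes with several tested members stay within 0.48 log2 units of each other at every time. On the right, the median of the plastid photosynthesis genes spans 0.46 log2 units. It spans 1.08 for the 10 tested nuclear photosynthesis genes, which are lowest at 0 h and 2 h.

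For a tested change between stages, late (14, 16 and 19 h, 3 samples), middle (6 to 12 h, 4 samples) and early (0, 2 and 4 h, 3 samples) windows were compared in 1 limma fit. A window groups different times of 1 culture, not replicates, and its p-values rest on the spread between these samples alone. From the early to the late window ndhG rose by 0.73 log2 units (SE 0.14, adjusted p = 0.0276). Its late signals were 129.5, 121 and 124, against 68.0, 69.5 and 90.3 in the early window. It was the 1 member called of 43, against 2.26% of all tested probe sets called higher and 1.80% called lower. The adjusted p came to 0.0504 to 0.110 when the 2, 10, 14, 16 or 19 h sample was left out, to 0.126 with neither 0 h nor 2 h, to 0.0727 with median centring and to 0.121 with 6 h in the early window, each of which ended the call. It passed in 13 of 21 alternatives, with a difference of 0.47 to 0.86 over all of them.

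Nuclear photosynthesis genes that mark green cells were also at a higher summed signal late than early, but not late than in the middle window. Of these 19 genes 3 had a named probe set, RCA, LHCB4.1 and LHCB4.2, and their summed signal was 345 to 394 in the late window, against 156 to 266 in the early window. The sum was already 349 to 431 in the middle window. LHCB4.2 was at the floor on all arrays. Their part in the difference of ndhG was not tested.

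The next lowest p-values between late and early were those of petN and psaA. petN differed by 0.67 (SE 0.18, adjusted p = 0.0600) and psaA by 0.68 (SE 0.22, adjusted p = 0.106). rbcL had a difference of 0.75 with an SE of 0.46 (adjusted p = 0.345), and its 2 h value was at the floor. In all, 10 members had an unadjusted p under 0.05 (23.3%), against 23.7% of all tested probe sets. The late window lay wholly above the early one for 9 members (psaA, psaJ, psbK, psbT, petN, ndhD, ndhE, ndhG and ndhK), against 16.8% of all probe sets. It lay wholly below for 0 members, against 9.63%.

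All 10 tested NDH members had a positive late minus early difference, with a median of 0.30 and a range of 0.12 to 0.73. Of the 10, 4 had an unadjusted p under 0.05, against 23.7% of all tested probe sets. Positive differences numbered 4 of 5 in photosystem I, 10 of 15 in photosystem II, 4 of 6 in cytochrome b6f and 4 of 6 in ATP synthase. Over all 43 members 33 (76.7%) were positive, against 59.4% of all tested probe sets. The median over the 43 members was 0.24, against 0.09 for all tested probe sets. Median centring moved the median of all probe sets by -0.15, and the members' median to 0.09. The members' median was 0.15 above that of all probe sets, 0.20 above it with quantile normalization and 0.11 above it without the 0 h and 2 h arrays. With median centring NDH had 8 of 10 positive, with a median of 0.15, and ATP synthase 3 of 6, with a median of -0.02. Without the 0 h and 2 h arrays 8 of 10 NDH members were positive, with a median of 0.35, and 2 of 6 in ATP synthase, with a median of -0.20. With quantile normalization ATP synthase had a median of -0.01 and NDH one of 0.27.

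**Figure D4:**
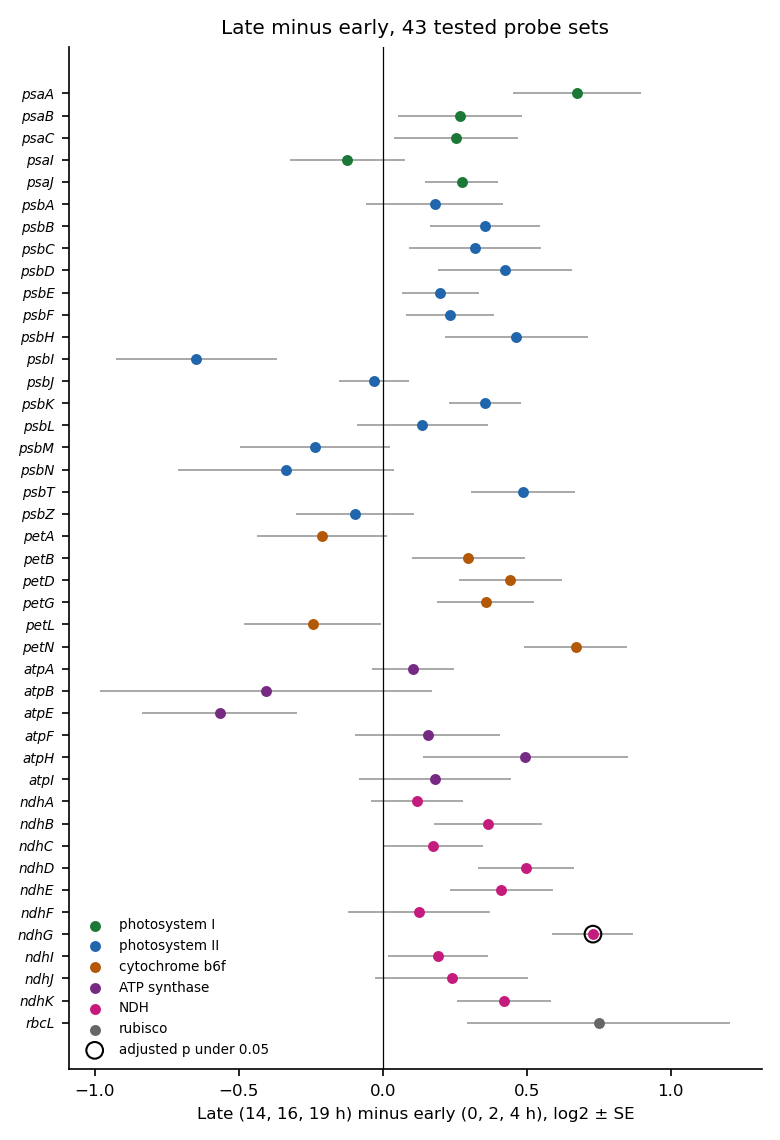
Late minus early difference of each tested member (horizontal axis, log2 units, points with bars of 1 SE from the limma fit), coloured by complex. The ringed point is ndhG at 0.73, the single member called, and all 10 NDH points lie to the right of 0.

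Between the middle and the early window 0 of 43 members were called by limma, with 6 (14.0%) at an unadjusted p under 0.05, where 21.7% of all probe sets stood, and against 0.520% of all probe sets called higher and 0.608% called lower. The lowest p-values were those of ndhG, with a difference of 0.51 (SE 0.13, adjusted p = 0.0743), psaA, with 0.57 (SE 0.21, adjusted p = 0.155), and psbI, with -0.70 (SE 0.26, adjusted p = 0.160). The middle window lay wholly above the early one for psaA, petN and ndhG, 3 of 43 members, against 10.5% of all probe sets, and wholly below for psbJ, 1 of 43, against 5.61%. The members' median difference was 0.11, against 0.07 for all probe sets.

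Between the late and the middle window 0 members were called by limma, as were 0% of all probe sets. At an unadjusted p under 0.05 there were 4 members (9.30%), against 5.03% of all. petB had the lowest p, with a difference of 0.49 (SE 0.18, adjusted p = 0.944). psbF differed by 0.36 and petG by 0.37 (adjusted p = 0.958 for both). The late window lay wholly above the middle one for psbF, psbH, psbJ, petB and ndhG, 5 of 43 members, against 6.16% of all probe sets. It lay wholly below for 0 members, against 4.94%. The members' median difference was 0.15, against 0.01 for all probe sets. In the other 33 plastid genes the median was 0.11, with 24 positive. For these the late window lay wholly above the middle one in 6 and wholly below in 0.

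Likeness of course was then set against shared operon and shared complex. Operons were assigned from the known gene order of the Arabidopsis plastid genome, and 11 of them held several tested members. Over the 10 arrays, the 48 pairs of members from a common operon had a median Pearson correlation of 0.45, with 41 above 0. The 154 pairs from a common complex but different operons had a median of 0.14, and the 701 pairs differing in both 0.20. Of the 48 operon pairs, the 12 from different complexes had a median of 0.30, or 0.22 without the 0 h and 2 h arrays, which is near that of pairs sharing neither. Members paired with the other plastid genes had a median of 0.16, as had members paired with the tested nuclear photosynthesis genes. Without the 0 h and 2 h arrays these medians were 0.18 and 0.01. Members paired with probe sets outside the plastid genome had a median of 0.06. These correlations describe pairs that share the same 10 arrays and the same genes, so they have no test. Without the 0 h and 2 h arrays the median was 0.41 within operons and 0.18 between operons.

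Within operons the likeness varied. The psbE operon (psbE, psbF, psbJ and psbL) had a median correlation of 0.67 and the large ATP synthase operon 0.61, with all pairs positive in both. atpB and atpE had 0.87, and 0.24 without the 0 h and 2 h arrays. In the psbB operon the median was 0.20, with 0.85 for petB and psbH and some pairs below 0. psbK and psbI, which adjoin each other, had -0.34. High correlations were also found outside operons. The highest of all 903 pairs was between psbD and ndhB, 0.98, or 0.95 without the 0 h and 2 h arrays.

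**Figure D5:**
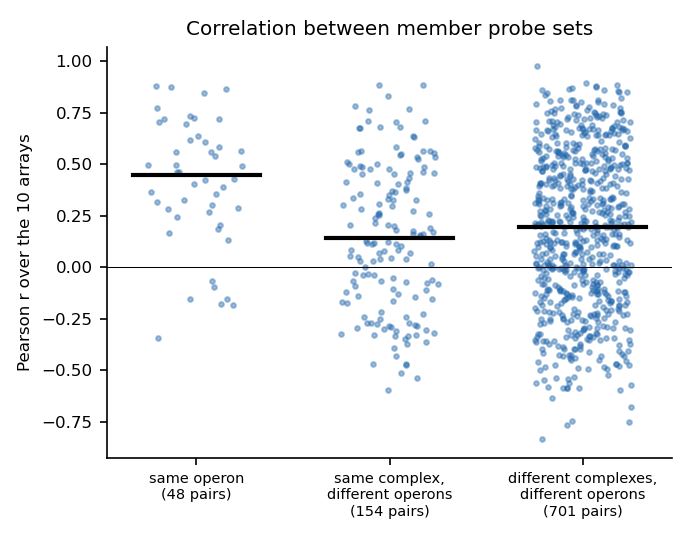
Pearson correlation over the 10 arrays for each pair of tested members (vertical axis), with 1 point for each pair, a black line at the median, and pairs split by shared operon and complex. The medians are 0.45 for 48 pairs of a common operon, 0.14 for 154 pairs of a common complex only and 0.20 for 701 pairs that share neither.

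The members were last set beside the remaining plastid genes and the nuclear photosynthesis genes, with no test of a difference. Of the 33 other plastid probe sets, mostly for ribosomal proteins and RNA polymerase subunits, 3 were called over the time course, rpoC1, rpl22 and rpl32. rpoC1, a subunit of the plastid-encoded RNA polymerase, was like petB high at both ends, with 551 at 0 h and 482 at 19 h. It was highest at 0 h and lowest at 6 h (235), whereas petB was highest at 19 h and lowest at 4 h. rpl22 and rpl32, ribosomal proteins, had their highest signals at 19 h and at 0 h. From the early to the late window 1 of the 33 was called, rpl22, with a difference of 0.44 (limma, adjusted p = 0.0436). The late minus early median was 0.24 for the photosynthesis members and 0.05 for the other plastid genes, and with median centring 0.09 and -0.10. Without the 0 h and 2 h arrays the order turned, with 0.14 for the members and 0.18 for the other plastid genes.

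Nuclear photosynthesis genes were taken from 3 lists of 28, 23 and 28 symbols. Only 14 of these had a named probe set and 10 were tested, so the nuclear medians cover a small part of the lists. Of the 10, 4 were called over the time course, PSBY, PSAE-1, RCA and LHCB4.1. PSBY and RCA were also called from the early to the late window (limma, adjusted p = 0.0432 and 0.0227). PSAE-1 was under the floor at 0 h and 2 h, so its middle minus early difference of 1.18 depends on the floor. RCA, rubisco activase, rose by 1.07 from the early to the middle window (SE 0.16, adjusted p = 0.0177), with middle signals of 259 to 299, against 106 to 173 in the early window. The median middle minus early difference was 0.11 for the 43 plastid-encoded members and 0.71 for the 10 nuclear genes. By list, the nuclear median was 0.74 for photosystem subunits (3 tested) and 0.88 for antenna, rubisco and activase (3 tested). It was 0.16 for subunits of cytochrome b6f, ATP synthase, NDH and soluble carriers (4 tested, 2 positive). In that list ATPC1, a nuclear gamma subunit of the plastid ATP synthase, differed by 0.82 (limma, adjusted p = 0.0820). NDHN differed by 0.34, ATPC2 by -0.02 and PGRL1B by -0.07. The 6 plastid-encoded subunits of the ATP synthase had a median difference of 0.21. Without the 0 h and 2 h arrays, which leaves 4 h as the early window, the medians were 0.03 for the plastid-encoded members and 0.30 for the nuclear genes. The difference between plastid and nuclear genes was not tested, and 2 further lists gave no call: 0 probe sets were named for nuclear factors of plastid transcription, and 0 of 4 tested genes of plastid RNA processing were called (limma F test, 0 at an unadjusted p under 0.05).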

How the data were processed

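Total RNA from 10 samples of 1 suspension culture had been labelled with biotin and hybridised to 10 ATH1 arrays. The deposited values are linear intensities, 1 per probe set, made with MAS5 per the submitters' processing notes, with no version stated. The authors had scaled the arrays, as the 2% trimmed means of 99.3 to 99.4 show. The number of arrays limits precision.

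Of 22810 probe sets, 64 controls were left out. Symbols came from the platform annotation, and genome of origin from RefSeq TAIR10.1. Arrays were rescaled to a 2% trimmed mean of 100, floored at the 25th percentile (12.1) and tested where the mean over 10 arrays exceeded the 40th percentile (26.8). R 4.3.3 with limma 3.58.1 fitted a spline with 4 terms and window means, with eBayes using a mean trend and Benjamini-Hochberg adjustment over 13647 probe sets at 0.05. The fits were tested on simulated data. Alternatives changed floor, filter, scaling, moderation, spline terms, windows and arrays.

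Members, lists and operons were chosen with earlier results of these data known. Values were given in full for called members, for the 2 members of each complex with the highest mean signal, the 2 with the widest observed range, and the 3 with the lowest p in each test. The others, including courses with high points at 6 h and 14 h, were named after their values were seen.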

Additional observations from a re-analysis of the deposited data

How the results depend on the processing

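Calls and median window differences were recomputed under 21 alternatives, steps and complex courses with quantile normalization and median centring, and correlations without the 0 h and 2 h arrays. The count of members called over the time course was 1 and became 2 with median centring, 2 without the 0 h and 2 h arrays, 3 with 3 spline terms and 0 without a mean trend. Leaving out 1 array gave 0 to 6 members, with 6 when either the 0 h or the 2 h array was left out. The late minus early count was 1 and became 2 with the 60th percentile filter and 0 with median centring, without the 0 h and 2 h arrays and with 6 h moved to the early window. Leaving out 1 array gave 0 to 3, the highest without the 4 h array. The middle minus early count was 0 and ranged from 0 to 2 when 1 array was left out, with ndhG and psbJ called without the 4 h array. The late minus middle count stayed at 0 in all 21 (limma, with 1 to 7 members at an unadjusted p under 0.05). Without the filter, psbJ was called over the time course in place of petB. The members' median late minus early difference, 0.24 in the main fit, was 0.09 to 0.30 over the alternatives, the lowest with median centring. The median was 0.08 to 0.18 for late minus middle and -0.01 to 0.16 for middle minus early, where median centring turned the sign. No paired analysis was possible because each time had 1 array and every label carries replicate number 1. Signals near the floor, as for rbcL at 2 h, atpI and ndhH, limit what could be seen there.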
